A study of Mus musculus with 48 samples.

Results

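The unfolded protein response and ER folding genes were read as a set of 37 genes, chosen by name from a list of sensors, chaperones, folding enzymes, degradation factors and export proteins of the endoplasmic reticulum (ER), out of 47480 gene symbols in the count tables. The choice was made with earlier results of these data known. The study had already reported protein folding categories for genes that responded to 6 h of stretch in myoblasts. Counts of members beside those of all genes therefore describe the chosen set. Counts were measured in 48 RNA-seq libraries of C2C12 cells, an established mouse myoblast line, in 12 groups of 4 libraries. Undifferentiated myoblasts and differentiated cells underwent 1 h, 3 h or 6 h of stretch with a Flexcell system, which pulls on a flexible collagen-coated membrane cyclically and in all directions. Each stretched group had its own non-stretched group of the same stage and time point, kept on the same kind of plate without stretching, and RNA was taken as soon as stretching ended. All groups share the same line, with no transgene, deletion or drug, so the results describe 1 cell line in culture. Of the 37 members, 36 had enough counts to be tested in every comparison. The exception was Derl3, a Derlin of the degradation machinery, which had 0 to 9 counts in every library.

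Proteins that enter the ER are folded there by chaperones such as BiP (encoded by Hspa5) and by disulfide isomerases, while lectin chaperones hold glycoproteins and a degradation pathway (ERAD) returns misfolded chains to the cytosol. When unfolded proteins build up, the sensors IRE1 (Ern1), PERK (Eif2ak3) and ATF6 (Atf6) activate transcription factors that raise the expression of these same folding and degradation genes. IRE1 acts by splicing Xbp1 mRNA, which counts per gene cannot show. In muscle cells this response is known to be active during myoblast differentiation, and part of the ER is specialised as the sarcoplasmic reticulum, the calcium store for contraction.

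The stage labels fitted the expression of defining markers: the summed level of 10 differentiated muscle markers was 18.8 to 64.9 CPM (counts scaled to the library's total and TMM factor) in myoblast libraries and 12290.2 to 21238 CPM in differentiated libraries. Summed leukocyte markers reached at most 1.56 CPM and summed endothelial markers at most 2.298 CPM. Summed adipocyte markers reached 19.2 CPM, nearly all from Pparg, with Adipoq, Plin1, Cidec and Lep at or near 0. Summed osteoblast markers reached 108.9 CPM, most of it from Runx2, with Ibsp, Bglap and Alpl at or near 0. In bulk RNA, fewer cells of a kind and less RNA per cell cannot be told apart. Library totals ran from 48447318 to 68967899 counts in myoblasts and from 53916927 to 77080730 in differentiated cells. Replicates 7 and 8 of a stage shared 1 code in their column names, and replicates 9 and 10 shared another. No code occurred in both stages. These codes were read as stretching experiments, which the labels do not say, and p-values measure the spread between these libraries. The study describes more experiments for differentiated cells than these codes show at 3 h and 6 h. For stretched myoblasts at 1 h, replicate 9, the sample label gave another code than the column name, and the column name was followed. Stretched differentiated cells at 1 h held replicates 4, 7, 8 and 9, and replicate 4 was the only library with its code.

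Several members are known targets of ATF6 and XBP1 through short promoter elements, so the promoter sequences are shown before the values. The RefSeq promoter table (GRCm38.p6, 250 bases before to 50 bases after the start, the start base counted as 0) held 31 of the 37 members. Atf6, Derl1, Sil1, Hyou1, Sec61a1 and Manf were not matched. Both strands were searched for the ER stress response element ERSE (CCAAT, any 9 bases, CCACG) and for the shorter ERSE-II (ATTGG, any 1 base, CCACG), which share the letters CCACG. ERSE was found in 39 of 32851 promoters (0.119%) and in 9 of the 31 members. ERSE-II was found in 12 promoters (0.0365%) and in 2 members. Members were chosen as genes of this response, so these counts describe the list. The ERSE matches of the members are listed below because 8 of these 9 genes could be tested for the response to stretch. Each is read on the strand that carries it, with the fixed letters in capitals.
Hspa5 (chr2:34772025-34772043, positions -65 to -47): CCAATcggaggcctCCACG
Syvn1 (chr19:6046532-6046550, positions -44 to -26): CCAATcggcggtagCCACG
Creld2 (chr15:88819520-88819538, minus strand, positions -126 to -108): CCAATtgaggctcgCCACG
Dnajc3 (chr14:118937827-118937845, positions -105 to -87): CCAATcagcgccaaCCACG
Pdia6 (chr12:17266491-17266509, positions -98 to -80): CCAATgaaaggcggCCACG
Calr (chr8:84847075-84847093, plus strand, positions -162 to -144): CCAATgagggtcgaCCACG
Canx (chr11:50325800-50325818, minus strand, positions -145 to -127): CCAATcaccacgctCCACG
Derl3 (chr10:75893242-75893260, minus strand, positions -156 to -138): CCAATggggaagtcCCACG
Hsp90b1, upstream match (chr10:86705638-86705656, minus strand, positions -212 to -194): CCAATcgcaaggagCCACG
Hsp90b1, downstream match (chr10:86705533-86705551, plus strand, positions -107 to -89): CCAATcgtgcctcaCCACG

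Hsp90b1 carried 2 matches, 1 on each strand. The ERSE-II matches lay in Herpud1 (chr8:94386377-94386387, positions -52 to -42, ATTGGgCCACG) and in Dnajb11 (chr16:22857852-22857862, positions 7 to 17, ATTGGcCCACG). The XBP1-type letters TGACGTGG (0.676% of promoters) occurred in Sec24d, and TGACGTGA (0.441%) occurred in Hspa5. In all, 12 of the 31 members held at least 1 of the 4 motifs. The 250 bases upstream of the start are shown for 3 members on the plus strand, all with low adjusted p-values in myoblasts at 6 h, with matches in capitals: Herpud1 (chr8:94386179-94386428), Syvn1 (chr19:6046326-6046575) and Eif2ak3 (chr6:70844265-70844514). The Eif2ak3 window holds none of the 4 letter strings, which says only that these letters are not in it.
Herpud1: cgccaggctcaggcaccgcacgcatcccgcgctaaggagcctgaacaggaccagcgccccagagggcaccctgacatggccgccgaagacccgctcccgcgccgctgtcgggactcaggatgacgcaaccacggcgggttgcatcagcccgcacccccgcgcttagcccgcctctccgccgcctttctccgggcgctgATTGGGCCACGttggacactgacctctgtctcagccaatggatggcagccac
Syvn1: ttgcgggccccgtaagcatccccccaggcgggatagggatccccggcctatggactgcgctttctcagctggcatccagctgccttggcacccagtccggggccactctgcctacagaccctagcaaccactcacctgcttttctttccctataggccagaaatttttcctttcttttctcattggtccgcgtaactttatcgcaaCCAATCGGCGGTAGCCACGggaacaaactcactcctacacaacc
Eif2ak3: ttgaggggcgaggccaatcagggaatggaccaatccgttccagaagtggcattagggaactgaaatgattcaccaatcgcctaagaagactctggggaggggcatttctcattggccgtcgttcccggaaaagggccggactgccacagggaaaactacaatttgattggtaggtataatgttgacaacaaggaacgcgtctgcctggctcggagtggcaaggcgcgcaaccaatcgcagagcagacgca

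To determine how stretch changed these genes, each stretched group was set against its own non-stretched group in an edgeR quasi-likelihood fit. Called genes had a Benjamini-Hochberg adjusted p under 0.05 and a log2 fold change of 0.58 or more in size. The members rose mainly at 6 h. In myoblasts at 6 h, 11 of 36 members were called higher and 0 lower, where 1.35% of all genes tested were called higher and 0.823% lower. By adjusted p alone, 29 members were higher and 1 lower, against 14.1% and 13.0% of all genes. The median log2 fold change of the members was 0.42, and that of all genes was 0.00. In differentiated cells at 6 h, 2 members were called higher and 0 lower, with 0.518% and 1.52% of all genes called. By adjusted p alone, 21 were higher and 1 lower (11.5% and 10.8% of all genes), and the median of the members was 0.16. Among the proliferation markers, 4 of 6 were lower by adjusted p in myoblasts at 6 h (median -0.12). Their summed level was 1829.5 to 2089 CPM in stretched and 2053 to 2187 CPM in non-stretched myoblasts. The only endothelial marker tested there, Kdr, was called higher by 1.26 (adjusted p = 0.00284) at a level of 0.594 CPM or less, and the part of these markers in the members' change was not tested. In differentiated cells at 6 h none of the 6 proliferation markers passed the test. Of the other markers, Myog was called lower in myoblasts at 3 h (-0.82, adjusted p = 0.0167). The members took 0.773 to 0.798% of all counts in non-stretched myoblasts at 6 h and 0.900 to 1.302% in stretched ones.

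**Figure D1:**
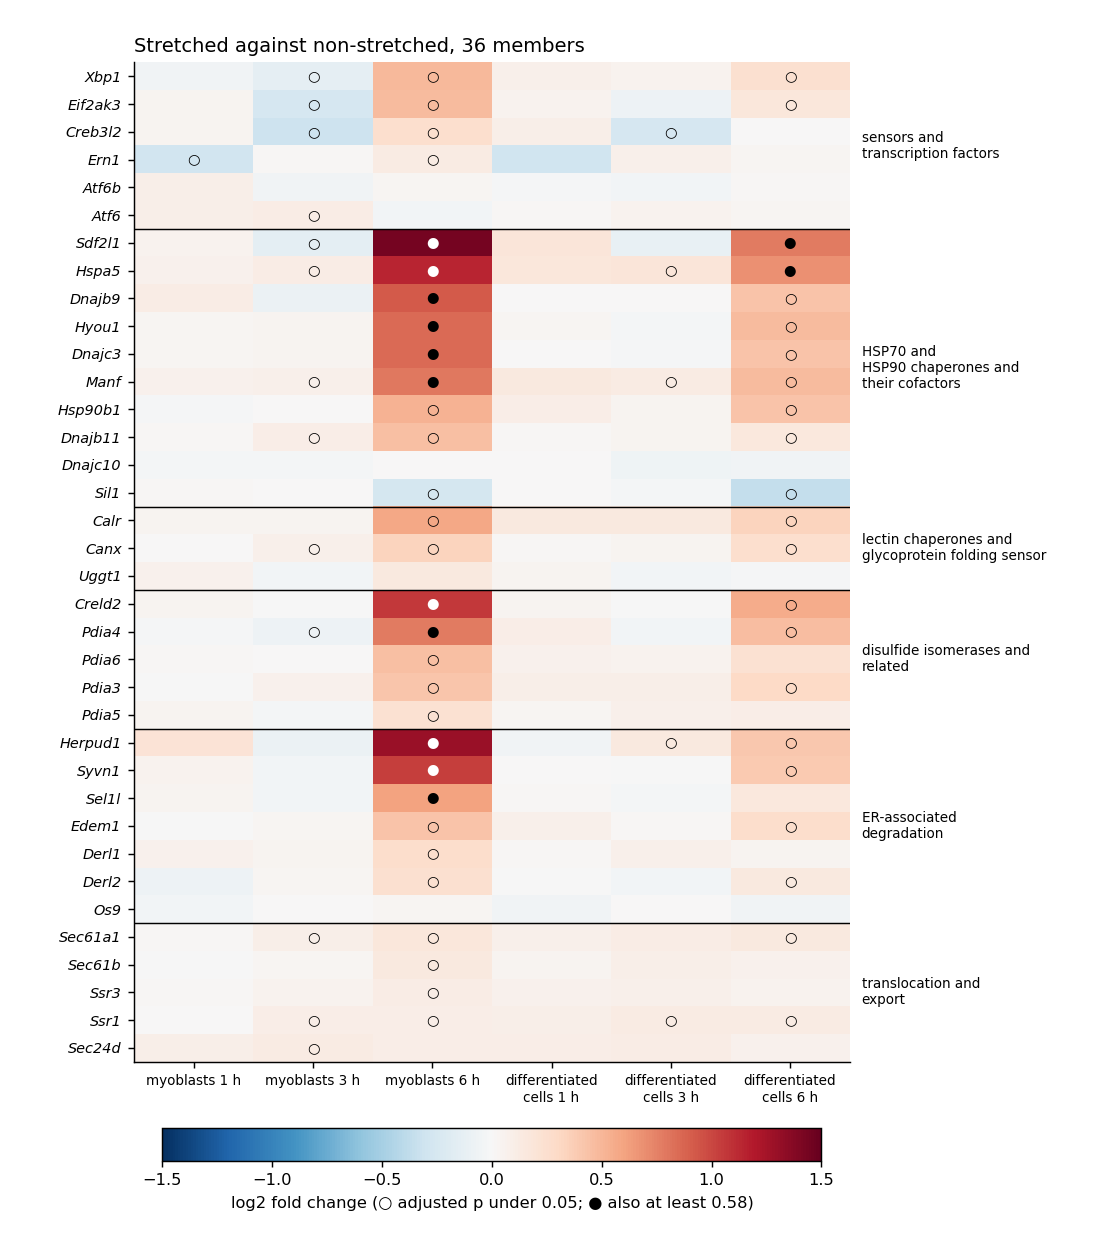
Log2 fold change (stretched against non-stretched) of the 36 tested members, in rows grouped by role, for the 6 comparisons of stage and time point in columns. Open circles mark an adjusted p under 0.05 and filled circles, white on dark cells, mark both limits. The 11 filled circles of myoblasts at 6 h and the 2 of differentiated cells at 6 h are the only ones.

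The group with the most members was the HSP70 and HSP90 chaperones and their cofactors, of which 8 of 10 were higher and 1 lower by adjusted p in myoblasts at 6 h, with 6 passing both limits. Hspa5 (ENSMUSG00000026864, chr2:34771970-34777547) encodes BiP, the main ER chaperone and the repressor of the 3 sensors. Its level in stretched myoblasts at 6 h was 2019, 1093, 2135 and 1164 CPM in replicates 7, 8, 9 and 10. In non-stretched myoblasts it was 725, 728, 712 and 746 CPM. The groups did not overlap, and replicates 7 and 9 stood well above 8 and 10 after stretch. The log2 fold change was 1.14 (SE 0.189, adjusted p = 0.00146). In differentiated cells, stretched libraries had 1116, 764, 1259.7 and 789 CPM, and non-stretched ones had 599, 603, 704 and 536 CPM. Again no stretched library fell to the level of a non-stretched one, and the log2 fold change was 0.68 (SE 0.151, adjusted p = 0.00964).

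Sdf2l1 encodes a small ER protein that works with BiP and its J-domain partners, and it showed the highest log2 fold change of the members in both stages at 6 h. Stretched myoblasts had 61.5, 26.7, 70.9 and 27.8 CPM in replicates 7 to 10. Non-stretched myoblasts had 16.995, 17.2, 16.7 and 18.8 CPM. The stretched group held a high and a low pair of libraries, both above every non-stretched library, and the log2 fold change was 1.43 (SE 0.284, adjusted p = 0.00394). In differentiated cells the stretched values were 25.3, 15.5, 26.9 and 12.8 CPM and the non-stretched values 11.2, 11.9, 13.95 and 9.81 CPM. Here the groups overlapped, since stretched replicate 10 lay below non-stretched replicate 9. The log2 fold change was 0.78 (SE 0.216, adjusted p = 0.0266), and the pass by adjusted p was lost in 6 of 17 settings.

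The J-domain proteins deliver clients to BiP. Dnajb9 (ERdj4) had 39.4, 27.3, 41.8 and 27.2 CPM in stretched myoblasts at 6 h and 18.4, 18.04, 17.6 and 18.004 CPM in non-stretched ones (log2 fold change 0.92, SE 0.130, adjusted p = 0.000617). Of the 31-base stretches of its exons, 10.8% also occur in the predicted gene Gm6568, so its counts are less certain. Dnajc3 (p58IPK), also known as an inhibitor of PERK, had 233, 137, 233 and 145 CPM against 102, 104, 107 and 105 CPM (0.84, SE 0.156, adjusted p = 0.00273). Neither pair of groups overlapped. Dnajb11 (ERdj3) rose by a log2 fold change of 0.45 (adjusted p = 0.00557), while Dnajc10 (ERdj5), a reductase of the degradation pathway, had 229 ± 1.88 CPM without and 230.4 ± 8.89 CPM with stretch (SD, n = 4) and did not pass the test (0.01, adjusted p = 0.864). In differentiated cells at 6 h, Dnajb9, Dnajc3 and Dnajb11 were higher by 0.42, 0.42 and 0.16 (adjusted p = 0.00831, 0.0131 and 0.0364).

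The nucleotide exchange factors of BiP went in opposite directions. Hyou1 (GRP170) had 371, 219, 389 and 232 CPM in stretched myoblasts at 6 h and 167, 170.3, 161 and 176 CPM in non-stretched ones (log2 fold change 0.85, SE 0.162, adjusted p = 0.00323). Sil1 had 11.4, 13.4, 12.4 and 13.4 CPM in stretched myoblasts and 15.2, 14.8, 15.2 and 15.7 CPM in non-stretched ones. Every stretched library lay below every non-stretched library, and the log2 fold change was -0.27 (SE 0.0551, adjusted p = 0.00473). In differentiated cells Sil1 had 23.3, 23.5, 22.2 and 23.6 CPM with stretch and 28.8, 29.5, 30.5 and 29.7 CPM without (-0.36, SE 0.0370, adjusted p = 0.000363). Sil1 was the only member lower by adjusted p at 6 h, and it was lower in both stages. Hyou1 in differentiated cells was higher by 0.48 (SE 0.118, adjusted p = 0.0166).

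Manf, a secreted and ER-resident factor that binds BiP, had 210.0, 135, 227 and 137 CPM in stretched myoblasts at 6 h and 102, 101, 101 and 106 CPM in non-stretched ones (log2 fold change 0.79, SE 0.149, adjusted p = 0.00289). Hsp90b1 (GRP94), the HSP90 of the ER, rose from 1024 ± 7.67 to 1464 ± 324 CPM (SD, n = 4 each; 0.52, adjusted p = 0.00858), below the fold limit. In differentiated cells Manf was higher by 0.47 and Hsp90b1 by 0.43 (adjusted p = 0.0234 and 0.0302). Hsp90b1 shares 4.09% of its 31-base stretches with another annotated gene.

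**Figure D2:**
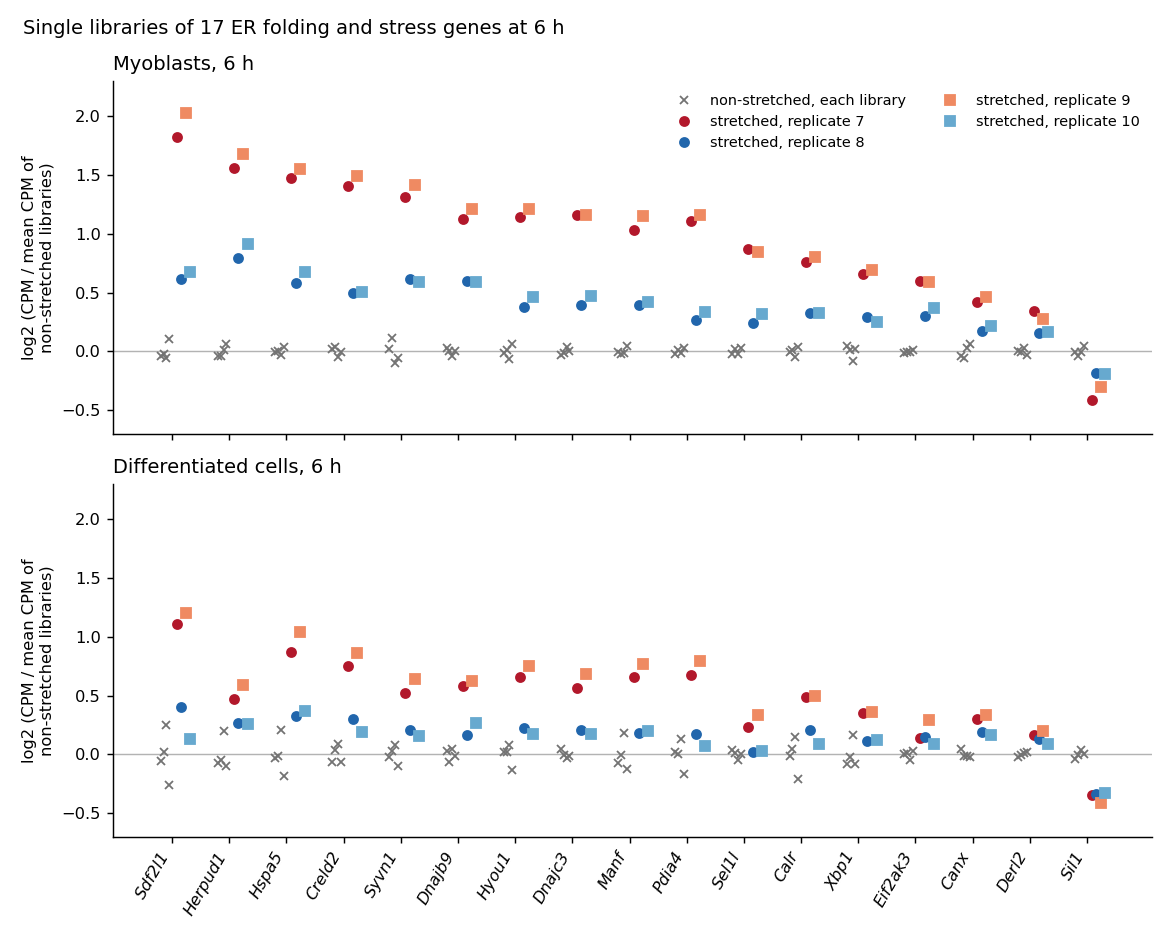
Log2 ratio of CPM to the mean of the non-stretched libraries for 17 members at 6 h, with 1 point per library, in myoblasts and in differentiated cells. Non-stretched libraries sit near 0, stretched replicates 7 and 9 sit highest for most members, and Sil1 is the member whose 4 stretched libraries all lie below 0.

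Among the lectin chaperones, calreticulin (Calr) and calnexin (Canx), which bind glycoproteins during folding, both rose at 6 h. Calr had 1473, 1088, 1518 and 1091 CPM in stretched myoblasts and 868, 874, 840.4 and 893 CPM in non-stretched ones. The groups did not overlap, and the log2 fold change of 0.58 (SE 0.0998, adjusted p = 0.00192) fell just short of the fold limit, while Sel1l at 0.60 lay just past it. Canx had 888, 749, 915 and 771 CPM against 645, 636, 676 and 693 CPM (0.33, SE 0.0613, adjusted p = 0.00282). In differentiated cells Calr was higher by 0.33 and Canx by 0.25 (adjusted p = 0.0368 and 0.00317). Uggt1, the enzyme that marks glycoproteins which still need folding, did not pass the test in either stage (0.14 and -0.02, adjusted p = 0.172 and 0.921).

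All 5 disulfide isomerases and related genes were higher by adjusted p in myoblasts at 6 h, and 2 passed both limits. Creld2, an ER disulfide isomerase known as a marker of ER stress, had 131, 69.9, 139 and 70.0 CPM in stretched myoblasts and 50.1, 50.7, 47.8 and 49.1 CPM in non-stretched ones (log2 fold change 1.06, SE 0.205, adjusted p = 0.00349). Pdia4 (ERp72) had 329, 184, 341 and 193 CPM against 151, 154, 151 and 156 CPM (0.78, SE 0.177, adjusted p = 0.00777). The lowest stretched library exceeded the highest non-stretched one for both genes. Pdia6, Pdia3 (ERp57, the partner of the lectin chaperones) and Pdia5 rose by 0.45, 0.42 and 0.23 (adjusted p = 0.00905, 0.00488 and 0.0370). In differentiated cells Creld2, Pdia4 and Pdia3 were higher by 0.55, 0.46 and 0.30 (adjusted p = 0.0133, 0.0429 and 0.0157), and Pdia6 and Pdia5 did not pass the test (0.23 and 0.10, adjusted p = 0.109 and 0.389).

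Of the 7 tested members of the degradation pathway, 6 were higher by adjusted p in myoblasts at 6 h and 3 passed both limits. These 3 belong to the complex around the ubiquitin ligase Hrd1 (Syvn1), which moves misfolded proteins out of the ER. Herpud1 (ENSMUSG00000031770, chr8:94386438-94395377), the subunit that organises this complex, had 149, 87.9, 162 and 95.3 CPM in stretched myoblasts and 49.3, 49.1, 51.0 and 52.8 CPM in non-stretched ones. Its log2 fold change was 1.29 (SE 0.170, adjusted p = 0.000409). Syvn1 had 128, 79.2, 138 and 77.97 CPM against 52.5, 55.9, 48.4 and 49.8 CPM (1.04, SE 0.169, adjusted p = 0.00131). Sel1l, the adaptor of the ligase, had 197, 128, 194 and 134 CPM against 106, 109, 106 and 109.8 CPM (0.60, SE 0.125, adjusted p = 0.00504). None of the 3 had overlapping groups. In differentiated cells Herpud1 had 239.9, 208, 261 and 207 CPM with stretch and 165, 168, 198 and 162 CPM without (0.40, SE 0.0842, adjusted p = 0.00760). Syvn1 was higher there by 0.40 (adjusted p = 0.0153), and Sel1l did not pass the test (0.16, adjusted p = 0.105).

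Edem1, which extracts mannose-trimmed glycoproteins for degradation, rose by 0.43 in myoblasts and 0.27 in differentiated cells at 6 h (adjusted p = 0.0145 and 0.0374). The Derlins, membrane proteins of the exit channel, had smaller fold changes. Derl2 had 72.7, 63.8, 69.7 and 64.3 CPM in stretched myoblasts and 57.4, 57.2, 58.7 and 56.3 CPM in non-stretched ones (log2 fold change 0.24, SE 0.0423, adjusted p = 0.00214), and it was higher by 0.14 in differentiated cells (adjusted p = 0.00958). Derl1 rose by 0.26 in myoblasts (adjusted p = 0.00640) and had 0.04 in differentiated cells (adjusted p = 0.454), with 8.6% of its 31-base stretches shared with Gm35638. Os9, a lectin that recognises degradation substrates, did not pass the test in either stage (0.03 and -0.06, adjusted p = 0.659 and 0.233).

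Among the 6 sensors and transcription factors, 4 were higher by adjusted p in myoblasts at 6 h and none reached the fold limit. Eif2ak3 (PERK), the kinase that slows translation, had 41.8, 34.1, 41.5 and 35.7 CPM in stretched myoblasts and 27.4, 27.6, 27.5 and 27.8 CPM in non-stretched ones (log2 fold change 0.48, SE 0.0619, adjusted p = 0.000391). Xbp1 had 132, 102, 135 and 99.2 CPM against 86.4, 84.4, 79.0 and 84.8 CPM (0.49, SE 0.0925, adjusted p = 0.00303). Both genes had groups that did not overlap. Creb3l2, a membrane-bound factor that controls secretory genes, was higher by 0.25 (adjusted p = 0.0461), and Ern1 by 0.13 (adjusted p = 0.0110). Atf6 and its relative Atf6b did not pass the test (-0.04 and 0.03, adjusted p = 0.426 and 0.650). In differentiated cells Xbp1 and Eif2ak3 were higher by 0.24 and 0.17 (adjusted p = 0.0364 and 0.0216), with stretched Eif2ak3 levels of 31.5, 31.7, 34.9 and 30.3 CPM and non-stretched levels of 28.6, 28.8, 27.6 and 29.2 CPM.

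The 5 translocation and export members showed small changes at 6 h. The translocon subunits Sec61a1 and Sec61b and the translocon-associated Ssr1 and Ssr3 were higher in myoblasts by 0.17, 0.15, 0.10 and 0.11 (adjusted p = 0.00624, 0.00455, 0.0262 and 0.0285). Sec24d, a cargo adaptor of the COPII coat, had 0.10 and did not pass the test (adjusted p = 0.173). In differentiated cells Sec61a1 and Ssr1 were higher, by 0.14 and 0.13 (adjusted p = 0.0434 and 0.0182), calls lost in 11 and 5 of 17 settings. Sec61b shares 23.5% of its 31-base stretches with Gm10320, so its counts are uncertain.

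Set against the promoter matches listed above, all 8 tested members with an ERSE were higher by adjusted p in myoblasts at 6 h, with log2 fold changes of 0.33 to 1.14 and a median of 0.71. The 20 members with a window and neither ERSE form included 15 that were higher, with a median of 0.23 and a highest value of 1.43, that of Sdf2l1. Of the 28 other genes with an ERSE, 9 could be tested in myoblasts, of which 1 was higher and 2 were lower by adjusted p, with a median of 0.15. A match to these letters is a description of the window and does not show that a factor was bound there.

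At 6 h the stretched libraries of both stages differed among themselves more than the non-stretched ones. The median coefficient of variation over the members was 15.3% in stretched and 2.43% in non-stretched myoblasts, and 10.4% and 4.94% in differentiated cells. In stretched myoblasts, replicates 7 and 9 both exceeded 8 and 10 for 29 of 36 members and both lay below them for 1. Over all genes tested, 21.5% had 7 and 9 above and 23% had them below. In stretched differentiated cells the count was 26 of 36 above and 2 below, with 20.0% of all genes above and 17.4% below. The non-stretched libraries with the same numbers showed 1 member above in myoblasts (16.2% of all genes) and 10 in differentiated cells (12.7%). There 14 members had 7 and 9 both below 8 and 10 in myoblasts (17.4% of all genes), and 1 in differentiated cells (11.9%). Replicates 7 and 9 carry different experiment codes, and no label separates them from 8 and 10. This order was seen in the values and was given no test.

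Taking the median over the members, the log2 change from the non-stretched mean was 0.59, 0.17, 0.60 and 0.22 in stretched myoblast replicates 7, 8, 9 and 10 at 6 h. In differentiated cells it was 0.21, 0.11, 0.32 and 0.09. All 8 values were above 0. Replicates 7 and 9 were also the deeper stretched myoblast libraries, with totals of 62133864 and 61652151 counts against 57523220 and 58132169 in 8 and 10. In differentiated cells the totals were 62039745, 58244054, 58227373 and 61651393 for replicates 7 to 10, so depth did not follow the order there. The part of depth in this order was not tested. With stretched replicates 7 and 9 left out together, 5 members were called in myoblasts and 0 in differentiated cells; with 8 and 10 left out, 19 and 10 were called. Within each experiment the median log2 difference of the members was 0.41 (replicates 7 and 8) and 0.40 (9 and 10) in myoblasts, positive for 33 and 34 of 36. In differentiated cells it was 0.16 and 0.19, positive for 30 and 32. In myoblasts all 4 stretched libraries exceeded all 4 non-stretched ones for 27 members and lay below them for 1, Sil1. Of all genes, 14.6% had the stretched group wholly above, and 2192 of 14938 had it wholly below. In differentiated cells 15 members lay wholly above and 1 below, where 14% of all genes lay above and 1909 of 15433 lay below.

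To examine when the response began, the same members were read at 1 h and 3 h. No member was called at either time in either stage, while 0.254% of all genes were called higher in myoblasts at 1 h, 0.459% at 3 h, and in differentiated cells 0.0901% were called higher at 1 h and 0.890% at 3 h. In this order 5, 14, 1 and 12 of the 36 members had an unadjusted p under 0.05, and DESeq2 also called 0. Among all genes tested, 2835 of 14938, 6140 of 14813, 1386 of 15538 and 5408 of 15513 had an unadjusted p under 0.05. By adjusted p alone, myoblasts at 1 h had 0 members higher and 1 lower (1.67% and 4.24% of all genes). The lower one was Ern1, with 33.1, 38.2, 34.3 and 31.9 CPM in stretched and 41.6, 43.2, 41.4 and 42.1 CPM in non-stretched myoblasts (log2 fold change -0.29, SE 0.0505, adjusted p = 0.00597). Differentiated cells at 1 h had 0 members higher by adjusted p (0.193% of all genes) and 0 lower, with 1 member at an unadjusted p under 0.05, and DESeq2 made 1 lower call. Ern1 there had 37.5, 41.2, 35.7 and 37.7 CPM in stretched replicates 4, 7, 8 and 9 and 47.9, 51.3, 44.4 and 43.6 CPM in non-stretched replicates 7 to 10. The groups did not overlap, and the log2 fold change of -0.30 did not pass the test (SE 0.0632, adjusted p = 0.0753). Replicate 4 of this group had the highest median member change, 0.14, against 0.07, 0.05 and -0.04 in replicates 7, 8 and 9.

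At 3 h in myoblasts, 8 members were higher and 5 lower by adjusted p, against 16% and 15.8% of all genes, and the median was 0.01. The higher ones were Hspa5, Sec24d, Dnajb11, Atf6, Ssr1, Sec61a1, Canx and Manf, with log2 fold changes of 0.08 to 0.12. Hspa5 had 735, 743, 708 and 742 CPM in stretched and 679, 670.0, 684 and 689 CPM in non-stretched myoblasts (0.11, adjusted p = 0.00273). The lower ones were Creb3l2, Eif2ak3, Xbp1, Sdf2l1 and Pdia4. Creb3l2 had 54.5, 55.6, 54.1 and 50.6 CPM with stretch and 64.9, 65.0, 70.0 and 69.0 CPM without (-0.32, SE 0.0350, adjusted p = 3.22e-05). Eif2ak3 had 23.1, 23.7, 22.3 and 22.5 CPM with stretch and 27.3, 26.9, 28.7 and 26.6 CPM without (-0.25, SE 0.0357, adjusted p = 0.000205). These 5 members passed the test as lower at 3 h and as higher at 6 h in myoblasts. The 3 h call was lost in 9 of 15 settings for Pdia4, 5 for Sdf2l1 and 1 for Xbp1, and the 6 h call in 9 of 17 for Creb3l2. For Eif2ak3 neither call was lost in any setting.

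In differentiated cells at 3 h, 4 members were higher and 1 lower by adjusted p (10.8% and 11.4% of all genes), and the median was 0.04. Hspa5, Herpud1, Manf and Ssr1 were higher by 0.18, 0.15, 0.13 and 0.12 (adjusted p = 0.00460, 0.00750, 0.0402 and 0.0116), with the call for Manf lost in 8 of 15 settings. Creb3l2 was lower, at 75.01, 73.6, 80.7 and 74.98 CPM with stretch and 96.4, 93.2, 85.3 and 87.3 CPM without (-0.25, SE 0.0425, adjusted p = 0.00244). Creb3l2, Hspa5, Manf and Ssr1 had the same sign of change at 3 h, past the test, in both stages.

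**Figure D3:**
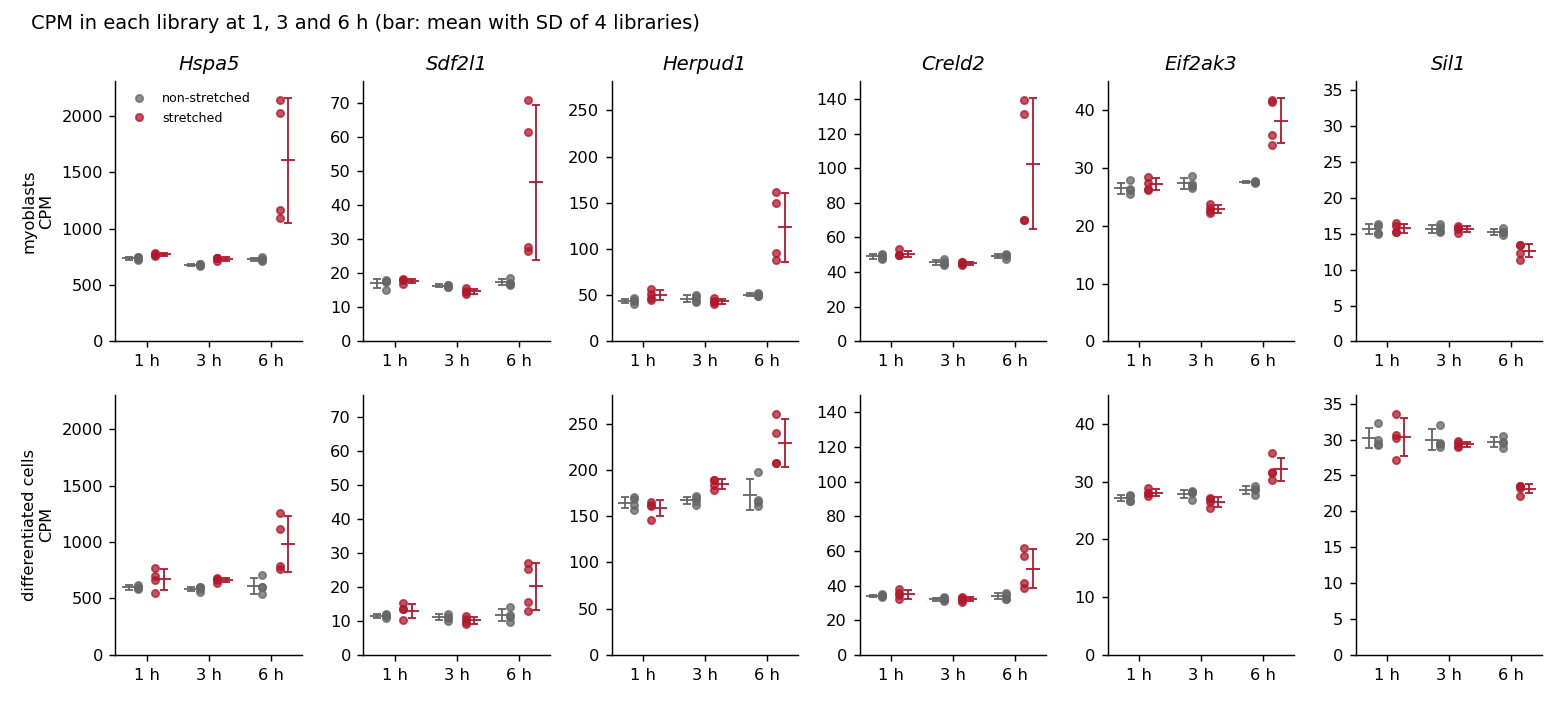
CPM of Hspa5, Sdf2l1, Herpud1, Creld2, Eif2ak3 and Sil1 in each library at 1 h, 3 h and 6 h, in myoblasts and differentiated cells, stretched and non-stretched, with the mean and SD of 4 libraries. Stretched and non-stretched means lie closer at 1 h and 3 h than at 6 h, where Sil1 is lower after stretch. Eif2ak3 in myoblasts is lower after stretch at 3 h and higher at 6 h.

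The difference between time points was tested as an interaction over the 24 libraries of a stage. In myoblasts the stretch effect at 6 h exceeded that at 1 h for 10 members past both limits (2.40% of all genes), and by adjusted p for 25 members, with 1 lower (11.6% and 9.42%). The 10 were Sdf2l1, Herpud1, Hspa5, Creld2, Syvn1, Hyou1, Dnajc3, Dnajb9, Pdia4 and Manf, with differences in log2 fold change of 0.73 to 1.38. The 1 lower was Sil1 (-0.28, SE 0.0659, adjusted p = 0.00300). In differentiated cells 0 members passed both limits (1.15% of all genes), and 0 were called by DESeq2. There 17 members and 4115 of all 16266 genes had an unadjusted p under 0.05. By adjusted p alone 10 were higher and 1 lower (6.73% and 5.13%). There the difference was 0.52 for Hspa5 (adjusted p = 0.0467, a call lost in 12 of 20 settings, the reported fit included), 0.46 for Herpud1 (adjusted p = 0.00230) and -0.37 for Sil1 (adjusted p = 0.00119).

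The changes of both stages at 6 h were then set side by side. The myoblast change was the larger for 34 of 36 members, and 31 were positive in both stages. Over the 36 members Pearson's r between the stages was 0.92 and Spearman's rho 0.91, given as a description because members are not independent. The median difference, myoblasts minus differentiated cells, was 0.19 on the log2 scale. In the interaction test over the 16 libraries at 6 h, 1 member passed both limits (0.517% of all genes) and 2 passed by adjusted p (2.79%). The stages shared no experiment code, so a difference between stages cannot be told apart from one between experiments. Herpud1 differed by 0.90 (SE 0.209, adjusted p = 0.0213) and Eif2ak3 by 0.31 (SE 0.0801, adjusted p = 0.0316). For Hspa5 and Sdf2l1 the differences of 0.47 (SE 0.269, adjusted p = 0.379) and 0.66 (SE 0.404, adjusted p = 0.409) did not pass, with the spread between stretched libraries described above. Counting the reported fit, the Eif2ak3 call was lost in 13 of 20 settings, and the Herpud1 call was kept in all 20.

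**Figure D4:**
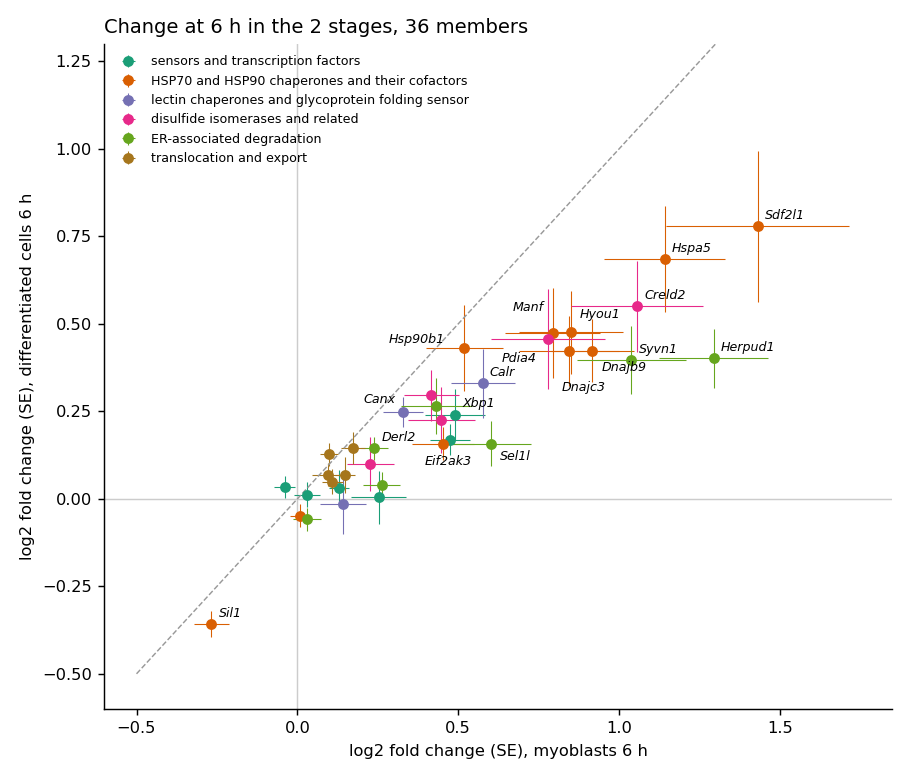
Log2 fold change at 6 h in myoblasts (horizontal) and in differentiated cells (vertical) for the 36 tested members, coloured by role, with standard errors as bars and the line of equal change dashed. Most members lie below the line at positive values, Herpud1 lies far to the right at 1.29 and 0.40, and Sil1 lies at -0.27 and -0.36.

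Herpud1 also differed between the stages before stretch. Per kilobase of exon, its level in the 12 non-stretched libraries was 20.1 ± 1.64 CPM (SD) in myoblasts, and the differentiated cells had 72.2 ± 4.42 CPM. These levels come from tables normalised separately and from different experiment codes. The highest level per kilobase was that of Calr, with 299 ± 7.70 CPM in myoblasts, while differentiated cells had 235 ± 21.7 CPM. In myoblasts Hsp90b1 (252 ± 7.55), Pdia3 (188 ± 5.55) and Hspa5 (169 ± 6.57) followed in CPM per kilobase, each further from the next than their SDs. In differentiated cells Hspa5 (141 ± 9.49), Hsp90b1 (139 ± 9.03) and Pdia3 (130.4 ± 9.97) did not differ beyond their spread. Of the tested members Eif2ak3 had the lowest level, 4.50 ± 0.145 CPM per kilobase in myoblasts and 4.62 ± 0.138 in differentiated cells. Myoblast Sil1, at 4.52 ± 0.159, did not differ from it beyond their spread, nor did Pdia5 in differentiated cells, at 4.65 ± 0.326. The non-stretched level per kilobase and the change at 6 h were only weakly related over the 36 members, with a Spearman's rho of 0.09 in myoblasts and 0.22 in differentiated cells.

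A list of 117 other ER genes was read beside the members: oxidative folding enzymes, translocon and glycosylation genes, transport genes, and further degradation factors. In myoblasts at 6 h, 41 of the 116 tested were higher and 8 lower by adjusted p, with a median of 0.08, and 1 passed both limits. It was Ero1lb, an oxidase that supplies the disulfide isomerases, with 23.1, 13.7, 23.3 and 15.8 CPM in stretched and 11.0, 11.7, 12.04 and 11.3 CPM in non-stretched myoblasts (log2 fold change 0.73, SE 0.150, adjusted p = 0.00467). In differentiated cells at 6 h, 22 of 116 were higher and 4 lower, and none passed both limits. Of all genes, 14.1% were higher and 13.0% lower by adjusted p in myoblasts at 6 h, and 11.5% and 10.8% in differentiated cells.

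Genes downstream of PERK were read as a list of 27 genes of the PERK and ATF4 arm. Ppp1r15a (GADD34), which restores translation, was called at 1 h in both stages, by 0.96 in myoblasts and 0.69 in differentiated cells, and its differences at 6 h were 0.01 and 0.08. In myoblasts at 1 h it had 49.9, 47.8, 52.3 and 49.2 CPM with stretch and 27.2, 27.1, 23.4 and 24.96 CPM without. Ddit3 (CHOP), a factor linked to cell death, was called at 6 h in both stages, by 1.18 (SE 0.131) and 0.97 (SE 0.119). Its values in myoblasts were 31.5, 22.6, 36.4 and 24.0 CPM with stretch and 12.8, 12.3, 13.4 and 12.2 CPM without. In differentiated cells they were 27.9, 25.5, 38.8 and 33.4 CPM with stretch and 14.8, 14.9, 17.7 and 16.3 CPM without, and the groups overlapped in neither stage. By adjusted p the list had 4, 14 and 3 genes higher and 4, 4 and 3 lower at 1 h, 3 h and 6 h in myoblasts. In differentiated cells the list had 1, 12 and 7 higher and 1, 0 and 1 lower. Of all genes there, 0.193%, 10.8% and 11.5% were higher. Lower were 73 of 15538 genes at 1 h, 11.4% at 3 h and 10.8% at 6 h. At 3 h, Vldlr was called lower in myoblasts (-0.60).

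The heat shock genes of a list of 18, which fold proteins outside the ER, also rose at 6 h. By adjusted p, 16 were higher in myoblasts and 13 in differentiated cells, 0 were lower, and 4 and 5 passed both limits. Of all genes, 14.1% and 11.5% were higher by adjusted p. Hspa1b, a stress-inducible HSP70 with a nearly identical copy in Hspa1a, had 398, 189, 406 and 168 CPM in stretched and 131, 135, 108 and 112 CPM in non-stretched myoblasts. Hsph1, a partner of HSP70, had 502, 271, 526 and 283 CPM against 201, 200.3, 187 and 190.1 CPM. Their log2 fold changes were 1.26 and 1.03 in myoblasts and 0.94 and 0.89 in differentiated cells. Also past both limits were Dnajb1 (0.59 in myoblasts, 0.70 in differentiated cells), Hspa1a in myoblasts (0.58), and Hsp90aa1 (0.59) and Hspd1, a mitochondrial chaperone (0.58), in differentiated cells. Replicates 7 and 9 lay above 8 and 10 for 17 of 18 heat shock genes in both stages at 6 h. The part of the heat shock genes in the order of the stretched libraries was not tested.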

How the data were processed

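RNA-seq was measured in 48 libraries of C2C12 myoblasts and differentiated cells, 4 per group of stage, stretch and time point. Per the methods of the study, stranded mRNA libraries were made from RNA of washed cells and sequenced in pairs, reads were processed with STAR and Salmon against mm10, and DESeq2 was used for expression. The GEO labels instead name the molecule as nuclear RNA for every library. The methods describe no isolation of nuclei, so the counts were read as mRNA of whole cells. The deposited values are counts per gene, whole numbers in 1 table per stage, with no normalisation by the authors. How Salmon's estimates were turned into whole counts is not given in the sources used here, and reads shared between similar genes can have been split between them.

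From these counts, edgeR 4.0.16 in R 4.3.3 was fitted for each stage and time point over 8 libraries (filterByExpr, TMM, quasi-likelihood test), with Benjamini-Hochberg adjustment over all genes tested. The limits were an adjusted p of 0.05 and a log2 fold change of 0.58, as in the study. Interactions were fitted over the 24 libraries of a stage or the 16 libraries at 6 h of both stages. CPM used TMM over the 24 libraries of a stage, and log2 CPM a prior count of 1. Level per kilobase used the joined exon length of GENCODE vM21, which has the same build as mm10. Of the 47480 symbols, 45213 matched it. The edgeR fit was tested on simulated counts first. Library totals were 48447318 to 77080730 counts, and Derl3 was the only member too low to be tested. No libraries of a group agreed within sampling noise (chi-square per degree of freedom of at least 2.742).

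The members and the other gene lists were chosen with earlier results of these data known. Values in every library are given for members that passed both limits in any comparison and for the 12 members with the smallest adjusted p at 6 h in either stage, and also for Ern1 at 1 h and Creb3l2 at 3 h, which were added after their values were seen. Genes of other lists are named where they passed both limits, at most 6 per list, besides markers. Upstream windows are shown for 3 members, taken in the order of adjusted p in myoblasts at 6 h. A member was passed over where its window overlapped the annotated gene or was missing. Replicate numbers were not used to pair the libraries in the reported fit. Of 23 correlations of same-numbered deviations, 6 exceeded 0.1 (range -0.044 to 0.153). Libraries with different numbers were not compared, so these values cannot decide whether the numbers pair libraries. Alternatives were DESeq2 1.42.0, RLE normalisation, no filter on low counts, all 24 libraries of a stage, the experiment as a covariate, a replicate block, and each library left out in turn.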

Additional observations from a re-analysis of the deposited data

Results flagged for a closer look

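Of 204 groups of 4 libraries, over 17 members with values in every library, 9 held a library whose gap to the others was past Dixon's limit relative to the group's range, and chance gives about 1 in 20 groups, or 5%. The high libraries were non-stretched myoblasts at 3 h, replicate 7, for Pdia4 (155.6 CPM) and Calr (869.985 CPM), non-stretched differentiated cells at 6 h for Herpud1 (replicate 9, 198 CPM) and Canx (replicate 7, 567 CPM), and stretched myoblasts at 1 h, replicate 7, for Creld2 (53.2 CPM). The low libraries were all replicate 9: non-stretched myoblasts at 1 h for Hyou1 (152 CPM), stretched myoblasts at 3 h for Dnajc3 (99.0 CPM), and stretched differentiated cells for Manf at 3 h (68.8 CPM) and Calr at 1 h (651 CPM).

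The stretch effect in myoblasts differed between 6 h and 1 h past both limits for 10 members, by an edgeR interaction term on the log2 scale. The differences were 1.38 for Sdf2l1, 1.09 for Herpud1, 1.07 for Hspa5, 1.01 for Creld2, 0.99 for Syvn1, 0.82 for Hyou1, 0.82 for Dnajc3, 0.80 for Dnajb9, 0.79 for Pdia4 and 0.73 for Manf. Their adjusted p-values ran from 0.000141 for Herpud1 to 0.00176 for Pdia4. Between the stages at 6 h, the effect was larger in myoblasts by 0.90 for Herpud1 (adjusted p = 0.0213) and by 0.31 for Eif2ak3 (adjusted p = 0.0316). Stage and experiment cannot be told apart in this comparison, since no experiment code occurred in both stages. The Eif2ak3 call was lost in 13 of 20 settings and the Herpud1 call in 0.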

How the results depend on the processing

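No result changed direction under any alternative. With the stretched replicates 7 and 9 left out at 6 h (chosen after seeing the data), members past both limits went from 11 to 5 in myoblasts and from 2 to 0 in differentiated cells, where adjusted p alone gave 4 in place of 21; with 8 and 10 left out they went to 19 and 10. By adjusted p in myoblasts at 1 h, 0 members were higher as reported, 2 with DESeq2, and 1 with either the experiment covariate or the replicate block. With all 24 libraries of a stage, myoblasts at 3 h had 2 higher and 2 lower in place of 8 and 5, and differentiated cells at 3 h had 0 higher in place of 4. In the latter the covariate gave 9 and the replicate block 7. Differentiated cells at 1 h had 1 lower in place of 0 without a filter, with DESeq2, the covariate or all 24 libraries. For 6 h against 1 h, the covariate and the replicate block each gave 2 lower in place of 1 in myoblasts and 1 past both limits in place of 0 in differentiated cells. Between stages, adjusted p gave 4 with DESeq2 and 1 with the replicate block within stage (added later) in place of 2. The replicate block changed no other count of members by over 1.5 times. By gene, the pass by adjusted p in differentiated cells at 6 h was lost in 7 of 17 settings for Pdia4. It was lost in 6 each for Sdf2l1, Manf, Hsp90b1, Calr, Xbp1 and Dnajb11, in 5 for Edem1 and in 4 for Eif2ak3. Sec61a1 and Ssr1 are given above, and the other members that passed lost it in at most 2. The cause of these shifts was not tested.

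Leaving out 1 library at a time, members past both limits at 6 h ranged from 10 to 13 in myoblasts and from 0 to 3 in differentiated cells, and by adjusted p from 25 to 31 and from 10 to 21. In differentiated cells 0 passed both limits without stretched replicate 9, and 1 passed without stretched replicate 7 or non-stretched replicates 7, 8 or 10. By adjusted p these left 13, 10, 11, 10 and 11. By adjusted p, myoblasts at 1 h had 0 to 1 higher (1 without stretched replicate 8), myoblasts at 3 h 4 to 9 higher (4 without non-stretched replicate 10) and 3 to 4 lower (3 without non-stretched replicate 7 or stretched replicate 9), and differentiated cells at 3 h 3 to 6 higher. For 6 h against 1 h, myoblasts had 10 to 14 past both limits and 1 to 2 lower by adjusted p (2 without non-stretched replicate 9 at 1 h). Differentiated cells had 0 to 3 past both limits, with 1 without stretched replicate 4 at 1 h or non-stretched replicate 9 at 6 h, 2 without stretched replicate 8 at 6 h and 3 without stretched replicate 10 at 6 h. Between stages, 1 to 3 passed both limits (3 without stretched myoblast replicate 8, 2 without replicate 10) and 1 to 6 passed by adjusted p, with 6 without either of these and 1 without most other libraries, where Eif2ak3 no longer passed. Derl3 had too few counts to be tested.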
